A study of Homo sapiens with 8 samples.

Results

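The genes described here are 10 feedback and target genes of Wnt/beta-catenin signalling: AXIN2, NKD1, RNF43, ZNRF3, LGR5, DKK1, NOTUM, TCF7, LEF1 and SP5. They were chosen by symbol, with earlier results of these data known, and all 10 were found among the 59050 gene symbols of the count files. RNA was sequenced from tumours that H2122 cells, a human cell line of lung cancer, had formed as xenografts in hosts given vehicle. The 4 parental tumours carry unmodified SMARCA4 (genotype WT in the labels), and the 4 knockout tumours came from H2122 cells with a SMARCA4 knockout. SMARCA4 is an ATPase of the SWI/SNF complexes, which move nucleosomes. The labels give neither the mouse strain, nor the knockout method, nor whether the knockout cells are 1 clone, so a difference between the groups cannot be told apart from a difference between these cell populations. They also do not say that each tumour came from a separate animal, so p-values measure the spread between these 8 samples.

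In canonical Wnt signalling, a Wnt ligand binds a Frizzled receptor together with LRP5 or LRP6, and the complex of APC, AXIN, GSK3 and casein kinase 1 stops marking beta-catenin for destruction. Beta-catenin then enters the nucleus and acts with TCF/LEF factors at target genes. Many of those targets encode inhibitors of the pathway itself, which makes them a feedback layer and also common readouts of pathway activity. In the lung, the pathway takes part in branching of the developing airway and in renewal of alveolar progenitors.

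Libraries held 19785922 to 23191698 gene counts in parental and 20662882 to 21981123 in knockout tumours. Epithelial markers (8 genes) summed to 7963 to 9199 CPM in parental and 6789 to 8210 CPM in the knockout tumours, where CPM is a gene's count divided by the scaled library size and multiplied by 1e6, and 3 of the 8 were lower in the knockout. The lung lineage factor NKX2-1 and the surfactant genes SFTPA1 and SFTPC had 0 counts in all 8 libraries, each of which allows up to 3 counts. SMARCA4 itself was at 198 to 235 CPM in parental and 22.3 to 31.1 CPM in the knockout tumours, and the groups did not overlap.

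The 250 bases before the transcription start were examined for the letters that TCF/LEF factors are known to bind. The windows of SP5 and DKK1, both changed between the groups, are printed because they held the most matches. The words searched on both strands were CTTTGAT, then CTTTGAA, then CTTTGTT and then CTTTGTA. They share their first letters, so 1 position can match only 1 of them. RefSeq starts (GRCh38.p14) were matched for 5 of the 10 members, with 7 windows in all, and AXIN2, NKD1, ZNRF3, LGR5 and NOTUM were not among them. In the sequences below, written 5′ to 3′ on the strand of the gene, capitals mark the matches, and TTCAAAG is CTTTGAA read on the other strand. The windows are chr2:170715087-170715336 (plus strand) for SP5 and chr10:52314031-52314280 (plus strand) for DKK1.
SP5: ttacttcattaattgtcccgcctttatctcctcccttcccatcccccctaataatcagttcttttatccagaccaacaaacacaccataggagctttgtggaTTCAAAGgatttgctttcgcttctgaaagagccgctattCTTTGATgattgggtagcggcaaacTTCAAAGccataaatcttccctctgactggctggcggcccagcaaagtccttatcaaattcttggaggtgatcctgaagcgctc
DKK1: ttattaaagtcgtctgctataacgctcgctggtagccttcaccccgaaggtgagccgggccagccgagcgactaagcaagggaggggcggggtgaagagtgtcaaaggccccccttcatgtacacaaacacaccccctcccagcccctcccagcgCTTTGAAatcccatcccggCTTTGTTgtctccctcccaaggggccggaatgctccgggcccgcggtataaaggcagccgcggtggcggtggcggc

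SP5 had 3 matches, beginning 148, 109 and 84 bases before its start, and DKK1 had 2, beginning 95 and 76 bases before its start. Of 35116 such windows in the RefSeq table, 11.96% held at least 1 match, 1.21% at least 2 and 0.1225% at least 3. As SP5 and DKK1 were picked for their matches, these shares describe the words and are no test of the 2 genes. CTTTGAT alone, the form in the middle of the SP5 window, was present in 2.26% of windows, CTTTGAA in 3.81%, CTTTGTT in 4.50% and CTTTGTA in 2.35%. One of the 2 TCF7 windows had 1 match, and the other TCF7 window, both RNF43 windows and the LEF1 window had 0. A match describes these letters only; SP5 and DKK1 both have matches, and their transcripts differed between the groups in opposite directions.

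The feedback genes did not move as a block. Of the 10 members, 9 passed the filter on low counts and were tested, each reaching the filter's level of 0.468 CPM in at least 3 parental and all 4 knockout libraries. DKK1, LGR5 and AXIN2 rose in the knockout tumours, NKD1 and SP5 fell, and RNF43, ZNRF3, NOTUM and TCF7 did not pass the test. These are 5 changed genes among 9 by edgeR's quasi-likelihood test at an adjusted p under 0.05, where 27.0% of all 16219 tested genes were changed, 13.0% upward and 14.1% downward. As the members were chosen with earlier results of these data known, their share is not independent of the data. The median log2 fold change of the 9 was 0.23, against 0.0035 over all tested genes. Of the 10 members, 4 had knockout values that all lay above or all below the parental values (AXIN2, DKK1, NKD1 and SP5), and 29.3% of all tested genes did so.

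**Figure D1:**
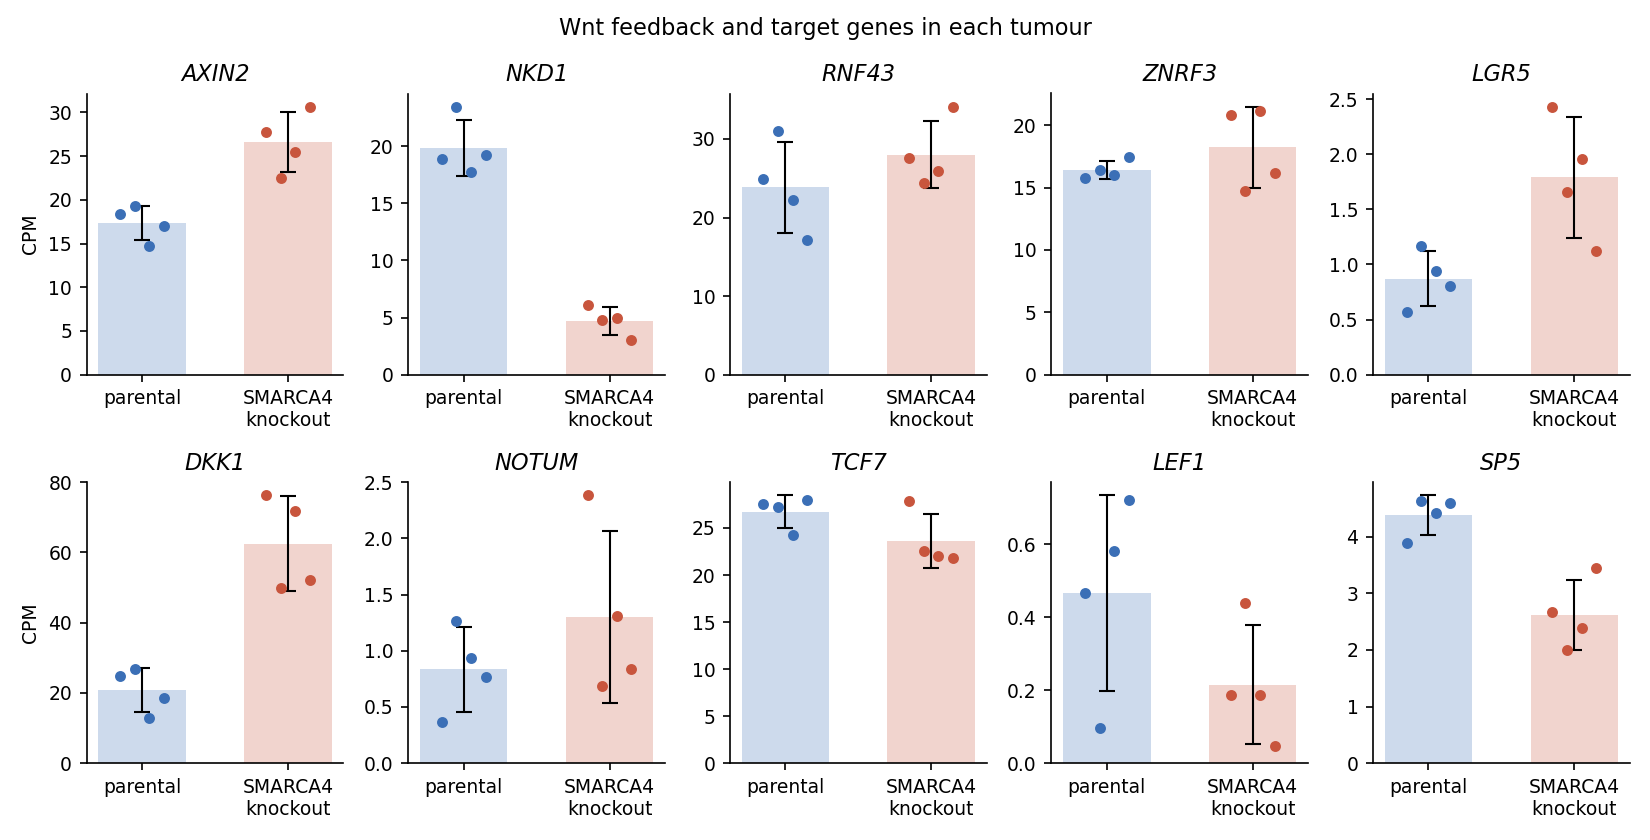
Level of each of the 10 genes in CPM (vertical axis, starting at 0, with its own scale for each gene) in the 4 parental (blue) and 4 SMARCA4 knockout (red) tumours; points are tumours, bars are means and error bars are SD. AXIN2 and DKK1 points lie higher and NKD1 and SP5 points lie lower in all 4 knockout tumours, while the groups overlap for the other 6 genes.

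The inhibitors that act inside the cell are AXIN2 and NKD1. AXIN2, a scaffold of the destruction complex and one of the most used readouts of canonical signalling, lies on chromosome 17 (65528563 to 65561647, minus strand, GENCODE 29 on GRCh38). AXIN2 was at 18.4, 19.2, 14.7 and 17.1 CPM in parental replicates 1 to 4 and at 27.8, 22.5, 25.5 and 30.6 CPM in knockout replicates 1 to 4. The lowest knockout tumour was thus above the highest parental tumour. AXIN2 rose from 17.4 ± 1.96 to 26.6 ± 3.46 CPM (SD, n = 4 each), 1.53-fold (log2 fold change 0.62, SE 0.122, adjusted p = 0.00317).

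NKD1 binds Dishevelled and dampens the signal; it lies on chromosome 16 (50548330 to 50649249, plus strand). Parental replicates 1 to 4 had 18.9, 23.4, 17.8 and 19.2 CPM of NKD1, and knockout replicates 1 to 4 had 6.07, 4.78, 4.95 and 3.03 CPM. The groups were far apart, with the highest knockout value under the lowest parental value, and knockout replicate 4 was the lowest. NKD1 fell from 19.8 ± 2.48 to 4.71 ± 1.26 CPM (SD, n = 4 each), 4.21-fold lower in the knockout (log2 fold change -2.07, SE 0.188, adjusted p = 1.69e-05). AXIN2 and NKD1, both targets of beta-catenin and both inhibitors, therefore differed between the groups in opposite directions.

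RNF43 and ZNRF3 are membrane ubiquitin ligases that remove Frizzled receptors from the cell surface. RNF43 (chromosome 17, 58352500 to 58417595, minus strand) was at 24.9, 31.0, 22.2 and 17.2 CPM in parental and 27.6, 24.4, 25.9 and 34.1 CPM in knockout replicates 1 to 4. ZNRF3 (chromosome 22, 28883592 to 29057487, plus strand) was at 15.8, 16.4, 16.0 and 17.4 CPM in parental and 20.8, 14.7, 21.2 and 16.2 CPM in the knockout tumours. The groups overlapped for both genes, and the knockout tumours of ZNRF3 spread on both sides of the narrow parental range. The log2 fold change was 0.23 for RNF43 (95% interval -0.14 to 0.61, adjusted p = 0.344) and 0.15 for ZNRF3 (-0.13 to 0.44, adjusted p = 0.428), so the intervals leave out a 2-fold difference in either direction. In GENCODE 29, RNF43 shares 4326 of its 7505 exon bases with the read-through gene AC004687.2 on the same strand and 1521 with TSPOAP1-AS1 on the other strand. In each library, 3.98 to 4.31% of reads were set apart as ambiguous between genes. How many of them lay over RNF43 is not given, and a low count of AC004687.2 does not tell how many reads RNF43 lost. AC004687.2 was at 0.120 ± 0.0812 CPM and 0.118 ± 0.145 CPM in the parental and the knockout tumours (SD, n = 4 each), and TSPOAP1-AS1 at 0.805 ± 0.283 and 1.01 ± 0.274 CPM.

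LGR5, a receptor for R-spondins known as a stem cell marker of the intestine, was close to the lower limit of what these libraries can measure (chromosome 12, 71439770 to 71586310, plus strand). Its counts were 11, 24, 21 and 19 in parental and 52, 34, 42 and 24 in knockout replicates 1 to 4, or 0.570, 1.17, 0.938 and 0.808 CPM against 2.43, 1.66, 1.96 and 1.12 CPM. Knockout replicate 4 fell inside the parental range and the other 3 knockout tumours lay above it. LGR5 rose from 0.872 ± 0.251 to 1.79 ± 0.549 CPM (SD, n = 4 each; log2 fold change 1.03, SE 0.305, adjusted p = 0.0265). The call was lost without parental replicate 1 (adjusted p = 0.0739) or 4 (0.0578) and without knockout replicate 1 (0.0906), 2 (0.0520) or 3 (0.0690), with the log2 fold change between 0.85 and 1.07 in these fits. The exact two-sided permutation test gave p = 0.0571.

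DKK1 and NOTUM are secreted inhibitors. DKK1 occupies LRP5 and LRP6 and keeps Wnt ligands from using them (chromosome 10, 52314296 to 52318042, plus strand). DKK1 was at 24.9, 26.8, 12.9 and 18.6 CPM in parental and 76.2, 49.8, 71.7 and 52.2 CPM in knockout replicates 1 to 4. No knockout tumour came near the parental range, and knockout replicates 1 and 3 were higher than replicates 2 and 4. DKK1 rose from 20.8 ± 6.31 to 62.5 ± 13.4 CPM (SD, n = 4 each), 3.01-fold (log2 fold change 1.59, SE 0.220, adjusted p = 3.00e-04). The 2 TCF/LEF-type matches shown above lie within 100 bases of the DKK1 start.

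Fibroblasts are a known source of DKK1, and 8 fibroblast markers were therefore summed. They came to 179 to 607 CPM in parental and 343 to 603 CPM in the knockout tumours, with COL1A1 as the most abundant, and 1 of the 4 tested (LUM) was higher in the knockout. COL1A1 was at 332, 572, 334 and 174 CPM in parental and 555, 317, 565 and 350 CPM in knockout replicates 1 to 4. Within the knockout group, replicates 1 and 3 were thus the higher ones for both COL1A1 and DKK1, and parental replicate 2 was the highest parental tumour for both. LUM had the other order within the knockout group, at 10.1, 13.4, 10.7 and 15.5 CPM in replicates 1 to 4, with replicates 2 and 4 the higher ones. Parental replicates 1 and 3 were level for COL1A1 but at 24.9 and 12.9 CPM for DKK1. Most other markers were far below COL1A1: COL1A2 was at 1.83 to 12.3 and COL3A1 at 2.55 to 23.1 CPM over the 8 tumours. DCN, PDGFRA, PDGFRB and THY1 were at most 0.468 CPM in any tumour. The levels of the groups overlapped for COL1A1 and not for DKK1. In bulk tumour RNA, fewer cells of a type and less RNA per cell cannot be told apart. Whether reads of the mouse host were separated is not given in the sources used here. LUM was at 0.104 to 0.638 CPM in parental and 10.1 to 15.5 CPM in the knockout tumours, and the part of fibroblast RNA in the DKK1 difference was not tested.

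NOTUM cuts the lipid that Wnt ligands need for receptor binding (chromosome 17, 81952507 to 81961840, minus strand). It had 7, 26, 21 and 18 counts in parental and 51, 14, 28 and 18 counts in knockout replicates 1 to 4, that is 0.363 to 1.27 and 0.683 to 2.38 CPM. Knockout replicate 1 was the highest, and the other 3 knockout tumours lay within or just above the parental range. The log2 fold change was 0.64 with a 95% interval of -0.34 to 1.62 (adjusted p = 0.321), and 0.18 without knockout replicate 1 (adjusted p = 0.809), and the interval with all 8 tumours includes a 2-fold difference.

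**Figure D2:**
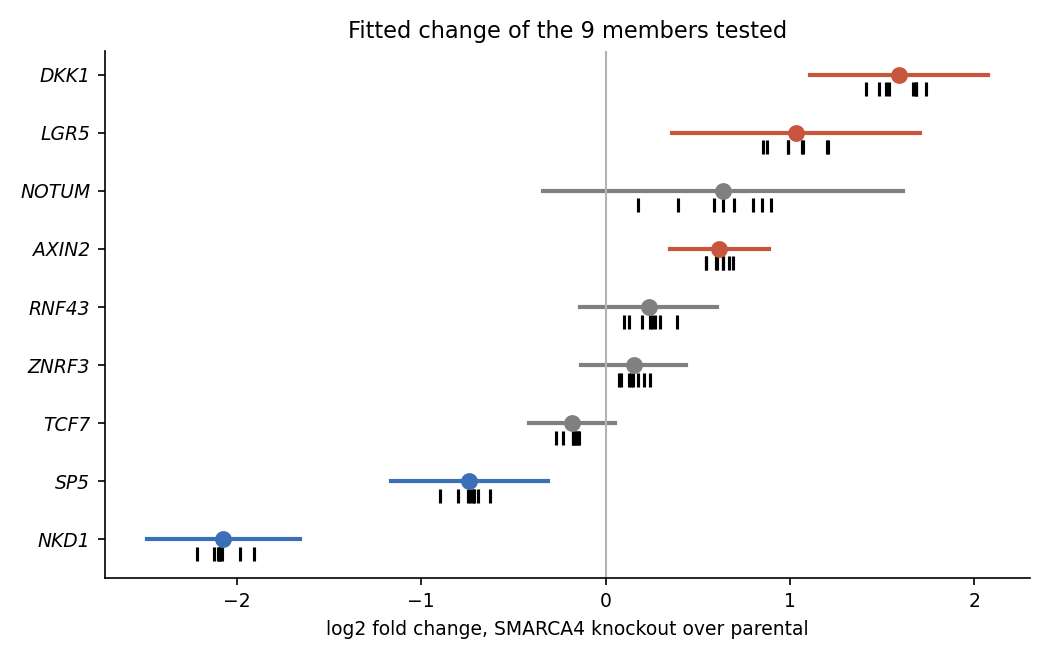
Fitted log2 fold change of knockout over parental for the 9 members tested (horizontal axis), with the 95% interval as a line; red genes were higher, blue genes lower and grey genes not changed at an adjusted p under 0.05. Black ticks under each line are the values when 1 of the 8 tumours was left out; they stay on 1 side of 0 for each gene, and those of NOTUM are the most spread, from 0.18 to 0.90.

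The transcription factors among the members are TCF7 and LEF1, which carry beta-catenin to DNA, and SP5, a zinc finger factor known to restrain Wnt target genes. TCF7 (chromosome 5, 134114711 to 134151865, plus strand) was at 27.6, 27.2, 24.2 and 28.0 CPM in parental and 27.8, 22.6, 22.0 and 21.8 CPM in knockout replicates 1 to 4. Knockout replicate 1 was level with the parental tumours and the other 3 knockout tumours were below all 4 of them. The log2 fold change of TCF7 was -0.18 (95% interval -0.41 to 0.049, adjusted p = 0.233).

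LEF1 (chromosome 4, 108047545 to 108168956, minus strand) was barely detected. It had 9, 2, 13 and 17 counts in parental and 4, 9, 4 and 1 counts in knockout replicates 1 to 4, and it was left out of the test by the filter on low counts. The pooled counts of 41 and 18 gave a knockout-to-parental ratio of 0.444 (exact 95% interval 0.240 to 0.790, counting error only), and 0.293 without knockout replicate 2. The groups overlapped, and the exact two-sided permutation test of CPM gave p = 0.171. The antisense gene LEF1-AS1 had 0 to 3 counts per library.

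TCF7 and LEF1 are also genes of T cells. The 8 T cell markers summed to 3.02 to 21.7 CPM in parental and 3.45 to 6.35 CPM in the knockout tumours, and 0 of the 5 tested changed by edgeR. Parental replicate 2 held the highest sum. In that tumour TCF7 was at 27.2 CPM and LEF1 had 2 counts. Parental replicate 3 came next for CD2, CD4 and CD8A, though not for CD3E. There TCF7 was at 24.2 CPM and LEF1 had 13 counts. The part of T cell RNA in the levels of TCF7 and LEF1 was not tested.

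SP5 (chromosome 2, 170715351 to 170718078, plus strand) was at 3.88, 4.64, 4.42 and 4.59 CPM in parental and 2.66, 2.0, 2.38 and 3.45 CPM in knockout replicates 1 to 4. All 4 knockout tumours lay below the parental ones, replicate 4 by the smallest margin. SP5 fell from 4.38 ± 0.346 to 2.62 ± 0.617 CPM (SD, n = 4 each), 1.67-fold lower (log2 fold change -0.74, SE 0.193, adjusted p = 0.0149). The exact two-sided permutation test gave p = 0.0286 for AXIN2, NKD1, DKK1 and SP5, the smallest p that 4 tumours against 4 can give.

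Ratios of members within a tumour do not depend on how libraries are scaled, and 4 were formed after the values had been seen, so they are given with no test. The AXIN2 to NKD1 ratio of read counts was 0.973, 0.821, 0.829 and 0.887 in parental and 4.58, 4.70, 5.15 and 10.1 in knockout replicates 1 to 4. The ratio was under 1 in each parental tumour and above 1 in each knockout tumour; as NKD1 has the longer exons, these read ratios do not give the order of the 2 transcripts' levels. For AXIN2 over SP5 the ratio averaged 3.98 ± 0.601 in the parental and 10.3 ± 1.02 in the knockout group (SD, n = 4 each). The DKK1 to AXIN2 ratio was 1.18 ± 0.242 and 2.37 ± 0.517, without overlap. The 2 ubiquitin ligases kept overlapping ratios, at 1.46 ± 0.378 and 1.58 ± 0.397 for RNF43 over ZNRF3.

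**Figure D3:**
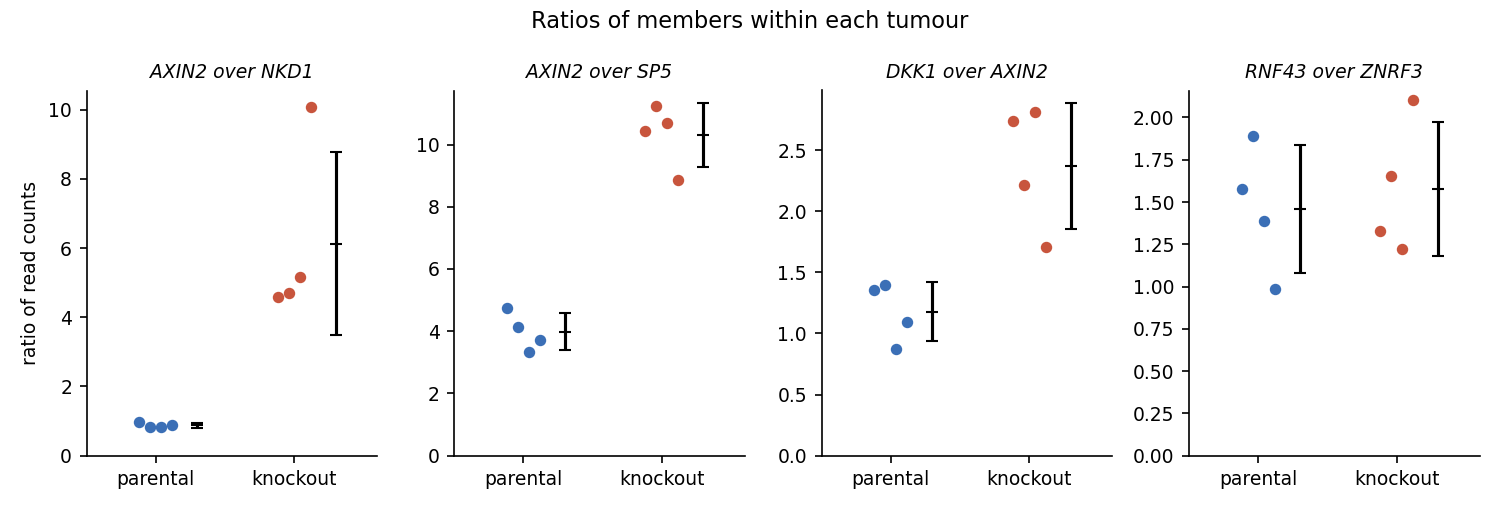
Ratio of read counts of 2 members within each tumour (vertical axis, starting at 0) for the 4 parental (blue) and 4 knockout (red) tumours, with mean and SD in black. The AXIN2 to NKD1 ratio is under 1 in each parental tumour and at least 4.58 in each knockout tumour, while the RNF43 to ZNRF3 ratios overlap.

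For the order of levels among the members, CPM was divided by exon length in kilobases (the union of GENCODE 29 exons). On this scale of CPM per kilobase, DKK1 was the highest member in both groups, at 9.43 ± 2.86 in the parental and 28.3 ± 6.08 in the knockout tumours (SD, n = 4 each). In parental tumours AXIN2 (3.32 ± 0.375), RNF43 (3.17 ± 0.768), TCF7 (2.66 ± 0.171) and ZNRF3 (2.35 ± 0.105) followed, each overlapping the next over the 4 tumours. SP5 (2.13 ± 0.168) and NKD1 (1.14 ± 0.142) stood below them without overlap, and NOTUM, LGR5 and LEF1 lay at 0.276 ± 0.125, 0.166 ± 0.0479 and 0.0871 ± 0.0499, with neighbours overlapping. In knockout tumours NKD1 (0.270 ± 0.0721) moved from rank 7 to rank 9, below NOTUM (0.432 ± 0.254) and LGR5 (0.341 ± 0.105), although its range overlapped theirs. With the length of the longest principal transcript, an alternative chosen after the data were seen, DKK1 stayed first and TCF7 and ZNRF3 ranked above AXIN2 in both groups, so the order among those genes depends on the gene model. The union length also includes bases shared with genes on the same strand, among them 4326 of 7505 in RNF43 and 1316 of 5226 in AXIN2. Reads there may have been set apart as ambiguous, so the values of RNF43 and AXIN2 may be too low and their places in the order are uncertain.

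Genes annotated across the members were checked because the strand setting of the counting is not given in the sources used here. AXIN2 shares 1316 of its 5226 exon bases with AC004805.1 on the same strand, a gene with 1 count in all 8 libraries. DKK1 shares 212 of 2206 with the antisense gene PRKG1-AS1 (0.880 ± 0.348 CPM in parental and 1.43 ± 0.511 CPM in the knockout tumours), LGR5 shares 208 of 5251 with AC078860.1 (0.217 ± 0.111 and 0.167 ± 0.0949 CPM), and TCF7 shares 210 of 10063 with SKP1 (139 ± 22.7 and 117 ± 6.29 CPM, SD, n = 4 each). NKD1 shares 67 of 17425 with AC007608.1, which had 0 counts throughout. ZNRF3 and its antisense gene ZNRF3-AS1 share no exon base. SP5 and NOTUM overlap no other gene. Reads over shared bases may have been set apart as ambiguous, so a low count of an overlapping gene cannot show that its member lost no reads.

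The 3 tested genes whose profile over the 8 tumours was most like that of AXIN2 were LINC00857, UBAC2-AS1 and HSPA12A, with root mean square differences of centred log2 CPM of 0.0799, 0.0861 and 0.0919. Their log2 fold changes were 0.59, 0.76 and 0.62, and since the genes were chosen for their likeness to AXIN2 over these tumours, closeness to its 0.62 follows from the choice. The UBAC2-AS1 call (adjusted p = 0.0315) was lost without any 1 of parental replicates 1, 3 and 4 or of the 4 knockout replicates (adjusted p = 0.0533 to 0.0942), with no filter on low counts (0.156) and by DESeq2 (0.128).

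The other genes of the pathway were read from a list of 115 ligands, receptors, inhibitors, transducers, nuclear factors and reported targets. Of these, 82 were tested, and 35 changed, 20 upward and 15 downward (42.7%, against 27.0% of all tested genes). The list was also chosen with earlier results of these data known, so this share is not independent of the data. The median log2 fold change of the 82 was 0.015. CTNNB1, APC, AXIN1, GSK3B, LRP5 and LRP6 did not pass the test, while several ligands, Frizzled receptors and close relatives of the members differed by 2-fold or more.

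**Figure D4:**
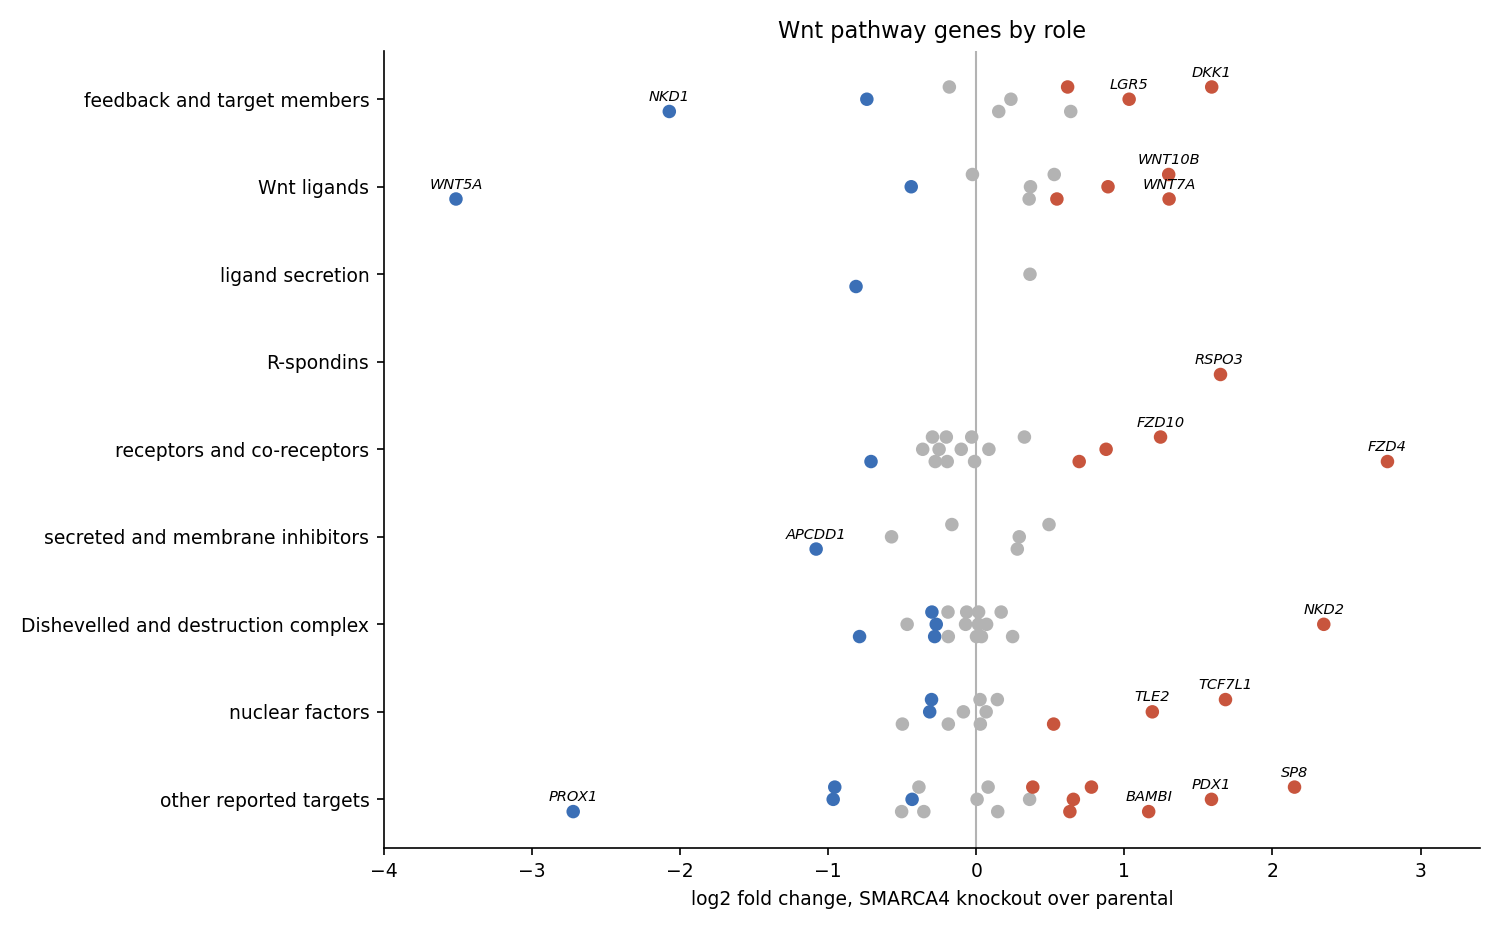
Log2 fold change of knockout over parental (horizontal axis) for the tested feedback and target members and the 82 other tested Wnt pathway genes, 1 point per gene, in rows by role; red is higher, blue lower and grey not changed at an adjusted p under 0.05, and changed genes with at least a 2-fold difference are named. WNT5A lies farthest to the left at -3.51 and FZD4 farthest to the right at 2.78; in the destruction complex row, all points other than NKD2 lie between -0.79 and 0.25.

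Among Wnt ligands, 10 of 19 were tested, 4 rose and 2 fell (60%, against 27.0% of all tested genes). WNT5A, a ligand best known for signalling without beta-catenin, was at 78.6, 33.9, 111 and 147 CPM in parental and 6.77, 8.68, 9.29 and 7.70 CPM in knockout replicates 1 to 4. The parental tumours varied widely and still lay above all knockout tumours, and WNT5A fell by 3.51 on a log2 scale (SE 0.373, adjusted p = 4.74e-05). WNT3, a ligand that signals through beta-catenin, rose from 14.9 ± 2.67 to 27.6 ± 2.0 CPM (SD, n = 4 each; log2 fold change 0.89, adjusted p = 4.99e-04). WNT7A, WNT10B and WNT5B rose by 1.30, 1.30 and 0.54 on the log2 scale (adjusted p = 0.00258, 0.0120 and 0.00375). WNT7B, named after its value was seen, fell by 0.44 (adjusted p = 0.0223), a call lost without parental replicate 3 (0.0563), knockout replicate 2 (0.0644) or knockout replicate 4 (0.0538). WLS, the carrier that brings Wnt ligands to the cell surface, fell from 22.1 ± 3.94 to 12.6 ± 0.652 CPM (adjusted p = 8.52e-04), and PORCN, which attaches their lipid, had a log2 fold change of 0.36 (adjusted p = 0.192, and 0.0424 without knockout replicate 4).

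R-spondins bind LGR receptors and remove RNF43 and ZNRF3 from the membrane. RSPO3, the only 1 of the 4 R-spondin genes tested, was at 51.0, 47.0, 35.4 and 50.7 CPM in parental and 144, 129, 155 and 147 CPM in knockout replicates 1 to 4. The groups were widely separated, and RSPO3 rose by 1.64 on a log2 scale (SE 0.121, adjusted p = 4.09e-06). LGR4, the relative of LGR5 that also binds R-spondins, rose from 89.8 ± 11.7 to 145 ± 18.5 CPM (SD, n = 4 each; log2 fold change 0.70, adjusted p = 0.00127). RSPO3 and LGR4 were thus higher in the knockout, as was LGR5, whose call was lost in several alternatives. RNF43 and ZNRF3 did not pass the test. LGR6, the other LGR gene on the list and named after its value was seen, did not pass it either. Its log2 fold change was -0.36 (adjusted p = 0.273) at a mean of 16.1 CPM.

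Of 18 receptor and co-receptor genes, 16 were tested, 4 rose and 1 fell (31.2%, near the 27.0% of all tested genes). FZD4 was at 15.1, 17.1, 12.1 and 9.40 CPM in parental and 123, 109, 89.5 and 45.9 CPM in knockout replicates 1 to 4, with log2 fold change 2.78 (SE 0.286, adjusted p = 3.86e-05). Knockout replicate 4 was the lowest of its group and still above every parental tumour. FZD4 is also known from endothelial cells, whose 8 markers summed to 17.2 to 26.5 CPM in parental and 26.0 to 32.0 CPM in the knockout tumours, and 3 of the 8 were tested. EGFL7, the most abundant, was higher in the knockout, at 7.71 to 9.84 CPM in parental and 16.7 to 18.7 CPM in the knockout tumours. VWF was lower, at 1.27 to 3.08 and 0.280 to 0.439 CPM, and passed the filter on low counts through the parental tumours alone. PECAM1 did not pass the test, at 5.14 to 12.9 and 7.99 to 14.6 CPM. CDH5, the endothelial cadherin, was at 0.0488 to 1.16 CPM in parental tumours and had 0 counts in each knockout library. The part of endothelial RNA in the FZD4 difference was not tested. FZD10 and FZD8 rose by 1.24 and 0.88 on the log2 scale (adjusted p = 2.06e-05 and 0.00792), and FZD2 fell by 0.71 (adjusted p = 0.0127). LRP5 and LRP6 had log2 fold changes of -0.28 and -0.10 (adjusted p = 0.0873 and 0.618), with LRP5 at -0.38 and 0.00833 without parental replicate 4.

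Among 16 further secreted and membrane inhibitors, 6 were tested and 1 changed (16.7%, against 27.0% of all tested genes). APCDD1, a membrane inhibitor and known Wnt target, fell from 4.24 ± 0.379 to 2.0 ± 0.596 CPM (SD, n = 4 each; log2 fold change -1.08, adjusted p = 0.00422), the same direction as NKD1 and SP5. KREMEN1, a partner of DKK1, had a log2 fold change of -0.16 (adjusted p = 0.236).

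In the row of Dishevelled and destruction complex genes, 17 of 18 were tested, 1 rose and 4 fell (29.4%, near the 27.0% of all tested genes). Beta-catenin itself, CTNNB1, was at 508 ± 57.9 and 509 ± 28.0 CPM in the parental and the knockout tumours (SD, n = 4 each; log2 fold change 0.0014 (SE 0.0962) whose sign depended on the scaling. APC, AXIN1 and GSK3B had log2 fold changes of -0.065, -0.072 and -0.19 (adjusted p = 0.698, 0.587 and 0.172). TNKS, a tankyrase that marks AXIN proteins for destruction, fell by 0.79 on the log2 scale (adjusted p = 5.37e-04). GSK3A, FBXW11 and CSNK1A1 fell by 0.28, 0.30 and 0.27 (adjusted p = 0.0271, 0.0316 and 0.0361). The GSK3A call was lost without parental replicate 1 or knockout replicate 1, 2 or 3 (0.0732 to 0.0887) and by upper-quartile scaling (0.0581). The FBXW11 call was lost without parental replicate 2 or 3 or any 1 knockout tumour (0.0570 to 0.0721). The CSNK1A1 call was lost without parental replicate 1, 2 or 4 or knockout replicate 1, 3 or 4 (0.0536 to 0.0856), and with no filter on low counts (0.0597).

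NKD2, the paralog of NKD1, was the gene that rose in this row. NKD2 was at 2.54, 1.95, 1.79 and 1.19 CPM in parental and 14.3, 8.53, 8.54 and 6.44 CPM in knockout replicates 1 to 4, with no overlap. It rose by 2.35 on a log2 scale (SE 0.285, adjusted p = 1.21e-04), while NKD1 fell by 2.07. The 2 paralogs therefore differed between the groups in opposite directions.

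All 12 nuclear factors on the list were tested, 3 rose and 2 fell (41.7%, against 27.0% of all tested genes). TCF7L1, a TCF factor known mainly as a repressor, was at 2.59, 2.44, 1.74 and 1.74 CPM in parental and 7.57, 6.87, 6.16 and 6.68 CPM in knockout replicates 1 to 4. It rose by 1.68 on a log2 scale (SE 0.182, adjusted p = 5.24e-05), whereas TCF7L2 had a log2 fold change of -0.087 (adjusted p = 0.533). TLE2, a corepressor, and BCL9L, a coactivator of beta-catenin, rose by 1.19 and 0.52 (adjusted p = 0.00172 and 0.00855). TLE3 and CTNNBIP1, a corepressor and an inhibitor of beta-catenin, fell by 0.31 and 0.30 (adjusted p = 0.0265 and 0.0392). The TLE3 call was lost without parental replicate 1 or 3 or knockout replicate 2, 3 or 4 (0.0520 to 0.0836), and that of CTNNBIP1 without parental replicate 2 or 3 or knockout replicate 1, 2 or 3 (0.0627 to 0.116) and by upper-quartile scaling (0.0795).

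Of 26 other genes reported as Wnt targets, 18 were tested, 7 rose and 4 fell (61.1%, against 27.0% of all tested genes). The 7 that did not pass the test include MYC and CCND1, named after their values were seen. Their log2 fold changes were -0.35 and 0.0055 (adjusted p = 0.111 and 0.984). SP8, a relative of SP5 in the same zinc finger family, rose from 0.566 ± 0.153 to 2.52 ± 0.545 CPM (SD, n = 4 each; log2 fold change 2.15, adjusted p = 1.70e-04), opposite to SP5. BAMBI, a decoy receptor of TGF-beta signalling, rose by 1.16 and CD44, an adhesion receptor, by 0.63 on the log2 scale (adjusted p = 3.48e-05 and 0.00153). PROX1, a homeobox factor, fell from 1.44 ± 0.705 to 0.213 ± 0.0845 CPM (adjusted p = 0.00111). With 3 to 6 counts in each knockout library, PROX1 passed the filter on low counts through the parental tumours alone. ID2, an inhibitor of helix-loop-helix factors, fell by 0.96 on the log2 scale (adjusted p = 4.50e-04). The reported targets thus differed in both directions, as the members did.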

How the data were processed

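Total RNA of 8 tumours was sequenced, and per the labels it was isolated with RNeasy kits and made into libraries with a NEBNext kit. The authors deposited, for each tumour, unnormalized counts of reads by gene symbol, then 5 summary lines that were left out; 79.1 to 85.2% of reads were assigned to genes. The submitters' processing notes name TopHat2 2.1.1, HTSeq 0.11.0 and hg38; the annotation, the strand setting and any separation of mouse reads are not given in the sources used here.

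Groups and replicate numbers were read from the sample titles. All genes were fitted together in edgeR 4.0.16 (R 4.3.3): filterByExpr with a minimum count of 10 and total of 15, TMM scaling, the quasi-likelihood F-test without covariates, and Benjamini-Hochberg adjustment over 16219 genes, with calls at an adjusted p under 0.05. Every adjusted p in the text is from this test unless another tool is named. CPM used the TMM-scaled library sizes. For single genes an exact permutation test (two-sided) was added, and LEF1 by pooled counts with an exact binomial 95% interval, which covers counting error only. The script was tested on simulated data. No 2 libraries were duplicates (chi-square per degree of freedom of at least 9.13 in 28 pairs).

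Named genes are the members, SMARCA4, genes overlapping a member, 9 core pathway genes, per role the 5 changed genes with the smallest adjusted p and the tested gene of highest mean CPM, and the 3 genes most like AXIN2 (pseudocount 0.25 CPM). The members and lists were chosen with earlier results of these data known. Alternatives were 2 other scalings, library sizes without the 10 most abundant genes, 2 other filters, DESeq2 1.42.0, limma-voom (limma 3.58.1), a replicate block and leaving out each tumour. Positions and exon lengths are from GENCODE 29, and promoter windows from RefSeq (GRCh38.p14).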

Additional observations from a re-analysis of the deposited data

Results flagged for a closer look

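In 10 of 120 sets of 4 values, the extreme tumour stood apart from the other 3 by more than Dixon's 95% limit; chance alone gives about 5%. Among the members, TCF7 was at 27.8 CPM in knockout replicate 1, against 21.8 to 22.6 CPM in the other knockout tumours. The AXIN2 to NKD1 ratio of counts was 10.1 in knockout replicate 4, against 4.58 to 5.15. In that tumour NKD1 was the lowest and AXIN2 the highest of the group.

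Among the other pathway genes, 3 were low in the same tumour, knockout replicate 4: GSK3B at 61.8 CPM (others 77.2 to 78.3), TNKS at 35.6 CPM (45.0 to 46.0) and FBXW11 at 47.1 CPM (55.4 to 56.1). Knockout replicate 2 was low for WNT10B, at 1.37 CPM (2.15 to 2.20), and for WLS, at 11.6 CPM (12.8 to 13.0). Parental replicate 4 was high for SKP1, which overlaps TCF7, at 172.9 CPM (125 to 131), and low for LRP5, at 188 CPM (248 to 260). Parental replicate 2 was high for LRP6, at 44.6 CPM (32.0 to 32.4).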

How the results depend on the processing

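Under all 16 alternatives, AXIN2, DKK1, NKD1 and SP5 stayed called in the same direction and RNF43, ZNRF3, TCF7 and, wherever tested, NOTUM stayed uncalled; LGR5 alone among the tested members lost its call. NOTUM and UBAC2-AS1 were not tested under the filter of 1 CPM in 4 libraries. The number of changed members was 4 or 5 throughout, and leaving out 1 tumour gave 3501 to 4721 changed genes overall. No label says that the replicate numbers pair the tumours. Deviations of same-numbered tumours correlated at -0.29 to 0.12 over 13053 genes, and 0 of 8 tumours correlated best with their own number. These correlations show no signal shared by number and cannot tell how the tumours were handled. With the replicate number as a block, 3871 genes, 4 members and 33 pathway genes changed, and LGR5 was at 1.01 with an edgeR adjusted p of 0.0611. The block also ended the calls of FBXW11 (adjusted p = 0.0533), CSNK1A1 (0.0584), CTNNBIP1 (0.0749) and UBAC2-AS1 (0.0802), and of no other among 51 genes followed. Of these, 38 kept their direction and their side of the threshold in every alternative. CTNNB1 changed sign to -0.0068 by relative log expression scaling, -0.0085 without the 10 most abundant genes, -0.021 with no filter and -0.018 by DESeq2, and its leave-one-out values spanned -0.051 to 0.063; the cause was not tested. LRP6 and APC changed sign when 1 tumour was left out, with ranges of -0.15 to 0.029 and -0.12 to 0.0097. No scaling moved the median of all genes by more than 0.037 on the log2 scale. DESeq2, limma-voom and the block gave no count of non-overlapping members, since they do not change CPM. Depth limits LEF1, LGR5 and NOTUM, with at most 17, 52 and 51 counts in any library.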

Other observations

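SOST and KREMEN2, inhibitor genes under the filter on low counts, were examined after their values had been seen. SOST, which encodes the LRP5 and LRP6 inhibitor sclerostin, gave 14, 4, 19 and 63 reads for parental replicates 1 to 4 but 0 in each knockout library. Taking 3 counts over the knockout group as the limit that 0 allows, pooled counts put SOST at least 33.0-fold lower in the knockout. Without parental replicate 4, which held most of the counts, this limit was 16.8-fold. Both limits cover counting error in the knockout group only and take the pooled parental counts as exact, so they leave out the spread between parental tumours. KREMEN2, a receptor for DKK1, had 9, 3, 14 and 11 counts in parental and 1 count in all knockout libraries together, a parental-to-knockout ratio of 36.6 (exact 95% interval 6.17 to 1484, counting error only). All 4 parental libraries had reads of both genes. They are among 10 untested inhibitors of the list, and others went the other way. Pooled parental and knockout counts were 3 and 10 for DKK2, 6 and 27 for DKK3, and 13 and 27 for FRZB. SFRP4, SFRP5 and WIF1 had at most 5 counts in either group, and DKK4 and SOSTDC1 had 0.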
